A study of Mus musculus with 12 samples.

Results

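The transcriptomes of c-MYC liver tumors from vehicle-treated mice were set against those of normal livers. These 6 libraries, 3 per group, were chosen by their labels from the 12 libraries of the series, and the other 6 came from tumors of drug-treated mice. The normal livers came from wild-type C57BL/6 mice, whose age, and whether they were injected or given vehicle, the sources used here do not state. The tumors arose, in mice homozygous for floxed *Rictor* and *Tsc2* (Rictor fl/fl, Tsc2 fl/fl), after hydrodynamic tail-vein injection of c-MYC, MCL1 and Cre plasmids, by which a minority of hepatocytes take up DNA, the transgenes integrate through the Sleeping Beauty transposase and Cre deletes both floxed genes. The mice were given vehicle by gavage for 3 weeks from 6 days after injection and sacrificed at 3.7 weeks, per the labels and methods. Another passage of the study describes a treatment of days rather than weeks before RNA-Seq, so the length of the vehicle treatment is uncertain. Tumor and normal liver therefore differed at once in the oncogenes and in both deletions, and may have differed in injection and vehicle, and these cannot be told apart. Both tissues were sequenced in bulk, so that fewer hepatocytes and less of an RNA per hepatocyte cannot be told apart either.

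The hepatocyte carries out most of the liver's specialized work. It makes nearly all plasma proteins, oxidizes and conjugates drugs, synthesizes bile acids, disposes of ammonia, holds blood glucose steady and packs lipids into lipoproteins, under a network of liver-enriched transcription factors led by HNF4A, C/EBPA and the FOXA proteins. c-MYC is a transcription factor that pairs with MAX, binds E-boxes and is known for raising ribosome production, nucleotide synthesis and cell division, while MCL1 is a BCL2 relative that protects against apoptosis.

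The unit throughout is the FPKM, the fragments per kilobase of exon scaled to library size, which corrects for gene length and so allows levels of different genes to be compared. The libraries held 17815008 to 18556985 reads in normal liver and 18689367 to 20298490 in tumors, as recovered from the FPKM, so that 3 reads on a 2 kb transcript were worth 0.0645 to 0.144 FPKM. Libraries of a group correlated across genes with r from 0.983 to 0.986 (normal liver) and 0.978 to 0.990 (tumors). *Rictor* measured 1.99, 1.65 and 2.57 FPKM in the normal livers and 1.19, 1.5 and 1.05 in tumors, and *Tsc2* at 5.21, 5.32 and 4.5 and 2.24, 2.01 and 2.31, values of whole genes, in which the deleted exons are not seen apart. *Rictor* was not called, and *Tsc2* was called lower, a call lost without normal liver replicate 1, normal liver replicate 2 or vehicle tumor replicate 2. All 6 libraries carried Y-linked *Ddx3y* RNA (10.3 FPKM or more) with *Xist* at 0.0267 FPKM or less. Vehicle tumor replicate 2 was the lowest of the 3 tumors for 1489 of the 2428 genes called lower (the other two for 506 and 433) and the highest for 1223 of the 2282 called higher.

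Of 14397 genes tested, 2282 (15.9%) were higher and 2428 (16.9%) were lower in tumors, by limma's treat on log2(FPKM + 1), which tests for changes beyond 1.5-fold, with a Benjamini-Hochberg adjusted p under 0.05. Such genes are referred to as called, and their adjusted p as the treat adjusted p. The groups did not overlap for any called gene, in either direction. With 3 libraries per group a call nearly requires this, so it adds nothing to the call. Some genes that were not called, such as *Cps1* and *Ass1*, did not overlap either. The median log2 fold change was 1.51 among the genes called higher and -1.72 among those called lower, and 223 genes fell by more than 4 on that scale against 75 that rose by as much. The deposited FPKM carry a scaling between libraries, with factors of 0.585 to 0.596 in normal liver and 1.12 to 1.15 in tumors, so that their sums were 764004 to 779803 and 317930 to 346862. Rescaling every library to the same sum moved the median log2 fold change of all genes by 0.94, and 7063 genes were then called higher (87% of the calls, against 48.5% before) and 1056 lower. All log2 fold changes are tumor minus normal liver on the deposited scale, and each should be read beside that shift. The share of the summed FPKM that a gene list takes in a library does not depend on the scaling and is therefore given as well. A share does depend on the other RNAs of the library. The 10 most abundant RNAs of each library took 34.2% to 35.4% in normal liver and 18.2% to 24.0% in tumors. Shares and the equal-sum setting therefore follow a few abundant RNAs in part, and a share can rise while the FPKM of a list fall.

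A total of 51 gene lists with 1606 distinct symbols was described, of which 1527 were tested, 402 called higher and 532 called lower. On the deposited scale the medians of the lists of hepatocyte functions were negative, and division, ribosome production, serine synthesis and fetal genes had positive ones.

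**Figure D1:**
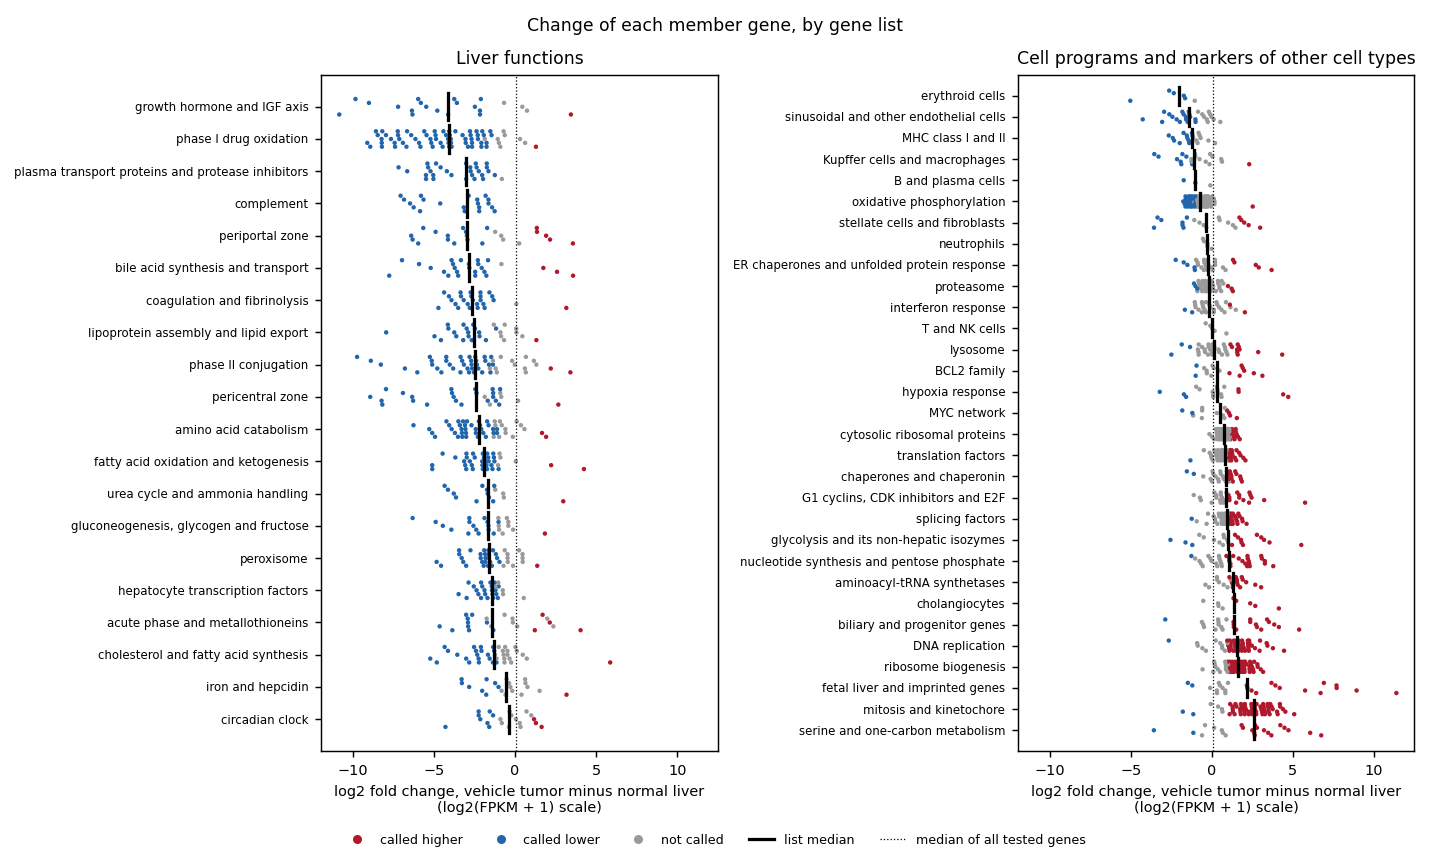
Log2 fold change (x axis, vehicle tumor minus normal liver, log2(FPKM + 1) scale) of every tested member of 51 gene lists (rows), with points colored by call, a bar at each list median and a dotted line at the median of all tested genes (0.06). List medians ran from -4.13 for the growth hormone and IGF axis to 2.61 for serine and one-carbon metabolism.

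The liver-enriched transcription factors were mostly lower on the deposited scale. Of 27 tested members, 22 were called lower and 0 higher (median log2 fold change -1.44), where 16.9% of all genes were called lower. *Cebpa*, which drives hepatocyte metabolic genes, measured 477, 363 and 309 FPKM in the normal livers and 48.7, 40.9 and 50.5 in tumors, with no overlap (log2 fold change -2.99, SE 0.26, treat adjusted p = 9.60e-06). *Nr1i3*, the xenobiotic sensor CAR, went from 8.99, 10.4 and 11.7 FPKM to 0.983, 0.903 and 0.914 (-2.55), and *Ppara*, which turns on fatty acid oxidation, from 44.8, 41.2 and 35.9 to 9.04, 6.17 and 11.6 (-2.1). *Hnf4a*, the central factor of the network, kept a high level, at 217, 239 and 199 FPKM against 113, 91.4 and 107. Its log2 fold change of -1.07 (SE 0.15, treat adjusted p = 0.012) turned to 0.13 with libraries rescaled to the same sum, and the call was lost without vehicle tumor replicate 2. *Nr0b2*, the bile acid-induced repressor SHP, fell most (-3.49), from 21.4, 63.7 and 34.7 to 1.32, 5.03 and 1.63 FPKM. Without vehicle tumor replicate 2, 19 of the members were called lower, and with libraries of equal sum 7.

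RNAs of secreted plasma proteins were lower on the deposited scale with few exceptions. Of 29 transport proteins and protease inhibitors, 28 were called lower (median -3.02), as were all 20 tested complement components (median -2.98) and 24 of 26 coagulation and fibrinolysis genes (median -2.65). With libraries of equal sum 19, 13 and 15 of them were called lower. Plasma transport proteins took 12.9% to 15.4% of the summed FPKM in the normal livers and 2.31% to 3.47% in tumors. *Alb*, which encodes serum albumin and was the most abundant protein-coding RNA of the normal livers, stood at 57200, 66000 and 76600 FPKM there and 1780, 953 and 1840 in tumors. Every tumor lay below every normal liver (log2 fold change -5.5, SE 0.57, treat adjusted p = 1.62e-05), with vehicle tumor replicate 2 the lowest. *Mug1*, a broad-range protease trap, fell further, from 1050, 1100 and 1140 to 6.13, 2.06 and 18.5 FPKM (-7.19), whereas *Trf*, which encodes transferrin, fell from 233, 346 and 201 to 65.7, 57.8 and 60.1 (-2.03). The *Serpina1* genes, near-identical copies between which reads may be split, were all called lower, and *Serpina1c* changed by -6.66. Among complement genes the size of the fall was unequal. *C9*, a pore-forming terminal component, went from 771, 459 and 728 FPKM to 5.42, 0.705 and 8.88 (-7.06) and *C8g* from 554, 497 and 596 to 7.31, 3.11 and 5.81 (-6.48), while *C3*, the hub of the cascade, retained 290, 226 and 302 FPKM against 1280, 1570 and 993 (-2.21). Fibrinogen beta chain RNA (*Fgb*) measured 2370, 2810 and 2190 FPKM in the normal livers and 341, 327 and 297 in tumors (-2.92), and prothrombin RNA (*F2*) at 633, 686 and 556 and 103, 85.1 and 97.8 (-2.7).

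Drug and steroid metabolism had the lowest median among the enzyme lists. Of 72 tested phase I genes (cytochromes P450, esterases, oxidoreductases), 63 were called lower and 1 higher, with a median log2 fold change of -4.09, and 54 were called lower with libraries of equal sum. Their share of the summed FPKM was 3.54% to 3.83% in normal liver and 0.254% to 0.476% in tumors. *Cyp2e1*, which oxidizes ethanol and acetaminophen, measured 4220, 5550 and 4240 FPKM in the normal livers and 10.2, 1.56 and 28.6 in tumors (-8.93, SE 0.67, treat adjusted p = 1.05e-06). *Cyp1a2*, which metabolizes caffeine, went from 646, 643 and 608 to 1.85, 0.118 and 4.12 (-7.96), and *Cyp3a11*, a broad drug oxidase, from 1660, 2040 and 2370 to 14.8, 6.79 and 22.1 (-7.14). The tumors were not alike in what remained, since vehicle tumor replicate 2 held the least of each of these RNAs and was lowest for 51 of the 63 genes. The carboxylesterase *Ces3a* fell most (-9.12), from 1170, 1180 and 1100 to 0.977, 0.0361 and 3.33 FPKM. The gene called higher was *Cyp3a16*, a cytochrome of the young mouse liver, listed at 0 in all 3 normal livers and at 1.67, 1.12 and 1.56 FPKM in tumors.

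Of 50 phase II conjugation genes, 36 were called lower and 2 higher (median -2.5). *Ugt2b1*, a glucuronosyltransferase, went from 1320, 875 and 1100 to 2.68, 1.38 and 3.84 FPKM (-8.28), *Inmt*, a methyltransferase, from 1210, 1300 and 1850 to 0.904, 0.178 and 1.05 (-9.75) and the sulfotransferase *Sult2a8* from 891, 692 and 985 to 0.824, 0.968 and 0.562 (-8.9). None of these RNAs passed 3.84 FPKM in a tumor. The glutathione transferase *Gstp1* kept 494, 546 and 583 FPKM of 3940, 3030 and 3250 (-2.65). Its relatives *Gsta1* and *Mgst2* moved the other way, *Gsta1* from 0.097, 0.285 and 1.2 to 16.4, 7.1 and 25.4 FPKM (3.41) and *Mgst2* from 0.0501, 0.049 and 0.0259 to 2.94, 4.96 and 3.67 (2.2).

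**Figure D2:**
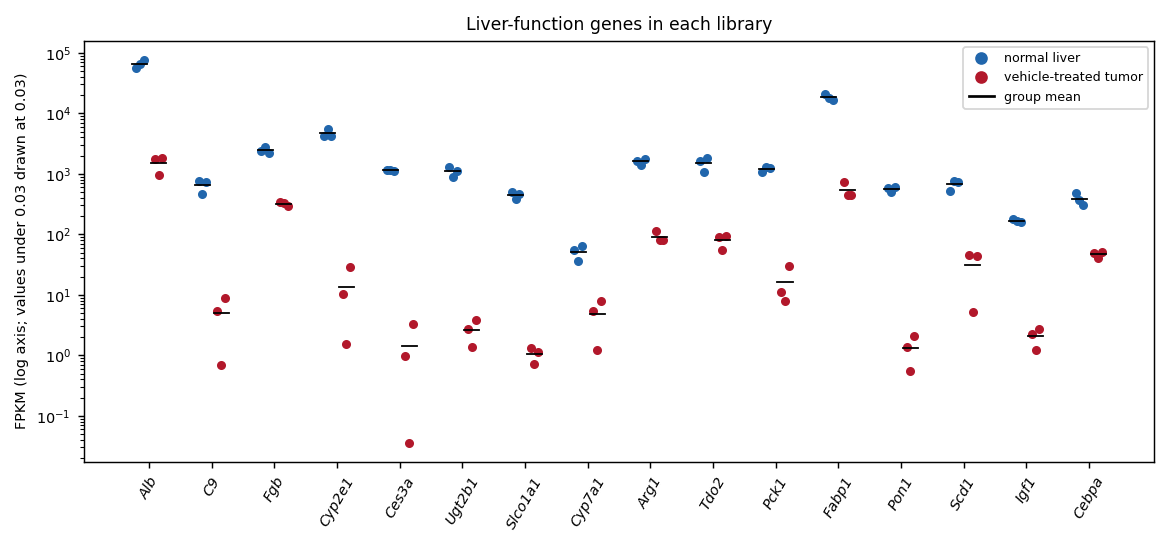
FPKM (y axis, log scale) of liver-function genes in each of the 3 normal livers and 3 vehicle-treated tumors, with group means as bars. For every gene the 3 tumors lie below the 3 normal livers, and the second point of the tumors, replicate 2, is the lowest for genes such as *Cyp2e1* and *Ces3a*.

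RNAs for bile acid synthesis and transport were mostly lower, with 22 of 26 genes called lower and 3 higher (median -2.84). With libraries of equal sum 16 were lower and 3 higher (median -1.72). *Cyp7a1*, the rate-limiting enzyme of the classic pathway, measured 54.4, 36.5 and 64 FPKM in the normal livers and 5.5, 1.24 and 7.89 in tumors (-3.34, SE 0.56, treat adjusted p = 0.00114). *Cyp7b1* of the alternative pathway changed by -6.98, from 494, 216 and 271 to 1.55, 0.679 and 2.42 FPKM, and *Cyp8b1*, which directs synthesis toward cholic acid, by -3.58. Of the basolateral uptake carriers, *Slco1a1* went from 494, 385 and 460 to 1.32, 0.719 and 1.15 FPKM (-7.76) and *Slc10a1*, the sodium-dependent carrier NTCP, from 435, 598 and 581 to 39.7, 16 and 23.1 (-4.38). The canalicular export pump *Abcb11* was less affected (-2.27). Some members went the other way. *Slc51b*, a subunit of the basolateral exporter OST, rose from 0.262, 0.128 and 0.27 to 17, 13 and 11.1 FPKM (3.57), *Abcc4*, another basolateral exporter, by 2.58, and *Cyp39a1*, an oxysterol hydroxylase, by 1.74, a call lost without normal liver replicate 1 or vehicle tumor replicate 2.

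RNAs for nitrogen handling were lower to unequal degrees. Of 15 genes of the urea cycle and ammonia handling, 11 were called lower and 1 higher (median -1.69), and with libraries of equal sum 7 were lower and 1 higher. *Arg1*, which releases urea, went from 1640, 1420 and 1780 to 112, 81.3 and 80 FPKM (-4.14, SE 0.43, treat adjusted p = 2.08e-05), and *Aqp9*, a channel for glycerol and urea, from 180, 188 and 142 to 7.92, 5.08 and 9.67 (-4.35). *Cps1*, which performs the first step, stood at 647, 633 and 848 and 294, 339 and 269 FPKM, and *Ass1* at 1130, 1240 and 1150 and 805, 611 and 709. Neither *Cps1* nor *Ass1* was called, although all 3 tumors lay below all 3 normal livers for both on the deposited scale, and the log2 fold change of *Ass1* (-0.74) turned to 0.46 with libraries of equal sum. *Glul*, the glutamine synthetase of pericentral hepatocytes, changed by -2.38.

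Among 49 genes of amino acid breakdown, 35 were called lower and 2 higher (median -2.24). *Tdo2*, which opens the tryptophan ring, went from 1660, 1080 and 1810 to 90.4, 55.9 and 92.4 FPKM (-4.24), *Tat*, which transaminates tyrosine, from 764, 1040 and 1670 to 150, 75.4 and 185 (-3.09) and *Bhmt*, which remethylates homocysteine, from 432, 207 and 473 to 12, 3.23 and 17.7 (-5.11). The falls were largest for *Agxt* (-6.27) and *Aadat* (-5.3), both aminotransferases. The genes called higher were *Mat2a* (1.66), the non-hepatic methionine adenosyltransferase, and *Gldc* (1.91), the glycine-cleaving decarboxylase, which went from 33.6, 34.9 and 33.9 to 125, 138 and 131 FPKM.

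Of 25 genes of gluconeogenesis, glycogen and fructose metabolism, 16 were called lower and 1 higher (median -1.65), and with libraries of equal sum 8 were lower and 2 higher (median -0.49). *Pck1*, the committed enzyme of gluconeogenesis, fell from 1070, 1290 and 1230 to 11, 8.02 and 29.7 FPKM (-6.32, SE 0.78, treat adjusted p = 6.08e-05), *Fbp1* from 1010, 1160 and 778 to 43.7, 33.6 and 54.6 (-4.46) and liver glycogen synthase *Gys2* from 118, 165 and 161 to 3.64, 2.73 and 5.96 (-4.9). *G6pc*, which frees glucose for export, varied among the normal livers (72.1, 168 and 211 FPKM) yet remained above the tumors (28.1, 17.9 and 31.6, log2 fold change -2.4). The gene called higher was *Pgm1* (1.84), a phosphoglucomutase.

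Fatty acid oxidation and ketogenesis were lower in 31 of 37 genes (median -1.92), with 2 higher, and with libraries of equal sum in 15, with 2 higher (median -0.81). *Fabp1*, the abundant cytosolic fatty acid carrier, went from 21000, 17900 and 16700 to 740, 454 and 451 FPKM (-5.11) and *Acaa2*, the last enzyme of mitochondrial beta-oxidation, from 1050, 1160 and 1040 to 143, 119 and 121 (-3.08). *Pdk4*, which shuts pyruvate out of the citric acid cycle, rose from 0.898, 1.14 and 1.56 to 29.5, 56.2 and 39.4 FPKM (4.24), and *Acot1*, a cytosolic thioesterase, from 8.78, 12.2 and 7.56 to 46.9, 48.7 and 46 (2.22). Of peroxisomal genes 26 of 37 were called lower and 1 higher (median -1.64), or 10 and 5 with libraries of equal sum (median -0.51). Among them *Cat*, catalase, changed by -2.75 and *Uox*, urate oxidase, by -4.57.

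Lipoprotein genes took 6.73% to 7.30% of the summed FPKM in the normal livers and 1.55% to 2.31% in tumors, and 19 of 28 were called lower with 1 higher (median -2.53). *Apoa1*, the main protein of HDL, measured 10900, 10500 and 9590 FPKM in the normal livers and 2010, 1290 and 1630 in tumors (-2.67), and *Apob*, the backbone of VLDL, at 583, 548 and 596 and 130, 99.9 and 143 (-2.22). *Pon1*, an HDL-bound esterase, fell to 1.38, 0.557 and 2.06 FPKM from 577, 500 and 595 (-7.95). *Apoa4* was the exception, at 110, 166 and 137 FPKM in normal liver against 370, 318 and 329 in tumors (1.31, treat adjusted p = 0.0362), a call lost on leaving out any library other than normal liver replicate 2.

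Cholesterol and fatty acid synthesis was lower in 20 of 37 genes and higher in 1 (median -1.29), but with libraries of equal sum 8 were lower and 5 higher (median -0.21). *Fasn*, fatty acid synthase, was not called and measured 27.1, 26.1 and 37.1 FPKM in the normal livers and 41.7, 37.6 and 45.8 in tumors. *Thrsp*, a lipogenic regulator, went from 1120, 1030 and 1400 to 44.7, 15.9 and 38.4 FPKM (-5.23) and *Fads2*, a polyunsaturated fatty acid desaturase, from 485, 458 and 323 to 43.8, 15 and 59.7 (-3.57).

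The growth hormone and IGF axis had the lowest median of the 51 lists (-4.13), with 17 of 21 genes called lower and 1 higher. Phase I drug oxidation was close (-4.09), and with libraries of equal sum the medians were -3.14 and -3.12. The growth hormone list also holds major urinary protein genes, 1 of which had its largest fall (-10.85). The receptor *Ghr* measured 135, 120 and 125 FPKM in the normal livers and 10.7, 7.24 and 11.3 in tumors (-3.59, SE 0.21, treat adjusted p = 2.93e-07). Its targets *Igf1*, the circulating growth factor, and *Igfals*, which stabilizes it in plasma, went from 181, 169 and 157 to 2.25, 1.24 and 2.77 FPKM (-5.81) and from 81.9, 82.7 and 56.7 to 1.79, 1.06 and 2.24 (-4.8). The male-biased, growth hormone-driven *Hsd3b5* measured 658, 477 and 438 FPKM in the normal livers and listed at 0 in every tumor. *Egfr*, the receptor for epidermal growth factor and an abundant hepatocyte receptor, fell from 83.4, 109 and 61.9 to 3.58, 3.33 and 4.48 (-4.13). *Igfbp1*, a secreted IGF-binding protein repressed by insulin, rose from 14.2, 95.9 and 130 FPKM to 483, 1070 and 474 (3.44), with a wide spread among the normal livers and no overlap.

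Hepatocytes near the central vein and near the portal inflow divide liver work between them, and the markers of both zones were mostly lower. Of the pericentral list 22 of 28 were called lower and 1 higher (median -2.42), and of the periportal list 14 of 23 and 5 (median -2.94). *Lgr5*, a Wnt target of pericentral cells, measured 0.94, 0.795 and 0.99 FPKM in the normal livers and at 0.00909, 0 and 0.00418 in tumors, and *Tbx3* at 1.55, 3.34 and 1.29 and 0.0352, 0.122 and 0.311 (-1.35). *Cyp2f2*, a periportal cytochrome, went from 768, 686 and 726 to 7.97, 2.37 and 19.7 FPKM (-6.41). Periportal genes that moved up were *Aldh1b1*, a mitochondrial aldehyde dehydrogenase, from 20.1, 26 and 29 to 354, 259 and 306 FPKM (3.57), *Tmprss2* (2.15) and *Cdh1*, E-cadherin (1.35), besides *Gldc* and *Sox9*. *Hsd17b13*, a lipid droplet protein, was not called, at 263, 305 and 331 FPKM and 377, 349 and 341.

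Iron genes moved in both directions. *Hamp*, the hormone hepcidin that limits iron entry to plasma, fell from 1190, 1470 and 949 to 148, 59.5 and 199 FPKM (-3.28) and its upstream sensor *Tfr2* from 136, 144 and 119 to 18.7, 16.7 and 17.8 (-2.84). *Tfrc*, the transferrin receptor of dividing cells, rose from 9.66, 7.76 and 19.3 to 111, 122 and 99.2 FPKM (3.17, SE 0.29, treat adjusted p = 1.34e-05). The list had 8 lower and 1 higher of 20 genes, with a median of -0.56 that turned to 0.52 with libraries of equal sum, where 2 were lower and 6 higher. Acute phase genes included 10 lower and 4 higher of 22 (median -1.41), or 6 and 8 with libraries of equal sum. *Orm1* (-4.66), *Hp* (-2.9) and *Crp* (-3.87), made by hepatocytes, fell, whereas *Saa3*, an amyloid A gene also expressed outside hepatocytes, went from 3.84, 2.47 and 5.44 to 105, 69.3 and 63.1 FPKM (4.04) and *Mt1*, a metallothionein, from 33.8, 257 and 69.2 to 445, 309 and 386 (2.14). The *Mt1* call was lost on leaving out any library except normal liver replicate 2 and vehicle tumor replicate 2.

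In the circadian clock list 8 of 21 genes were called lower and 3 higher, and its median of -0.38 turned to 0.77 with libraries of equal sum, where 4 were lower and 8 higher. The repressor and output genes *Dbp* (47.4, 56.4 and 32.6 to 1.37, 1.09 and 1.48 FPKM, -4.3), *Per3* (-2.25) and *Nr1d1* (-2.25) fell, while *Arntl*, the activator BMAL1, rose from 0.148, 0.253 and 0.153 to 1.88, 2.2 and 1.59 FPKM (1.28). The hour of sacrifice is not given in the sources used here, and its part in these values was not tested.

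For RNAs of mitochondrial respiration the direction depended on the scale. Of 78 nuclear genes for oxidative phosphorylation, 23 were called lower and 1 higher on the deposited scale (median -0.74). With libraries of equal sum 0 were lower and 12 higher (median 0.45). Their share of the summed FPKM was 1.93% to 2.01% in normal liver and 2.48% to 2.96% in tumors. Their own sums were 14771 to 15688.2 FPKM in normal liver and 8613.97 to 10256 in tumors. The 13 protein-coding genes of mitochondrial DNA, a class taken up after their values were seen, had a median of -1.65, or -0.45 with libraries of equal sum, and 11 were called lower, or 2 with libraries of equal sum. Their share was 12.2% to 14% in normal liver and 7.35% to 9.96% in tumors. The nuclear gene called higher was *Cox6a2*, the heart and muscle isoform of a cytochrome c oxidase subunit, listed at 0, 0 and 0.141 FPKM in normal liver against at 4.12, 7.25 and 4.1 in tumors.

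**Figure D3:**
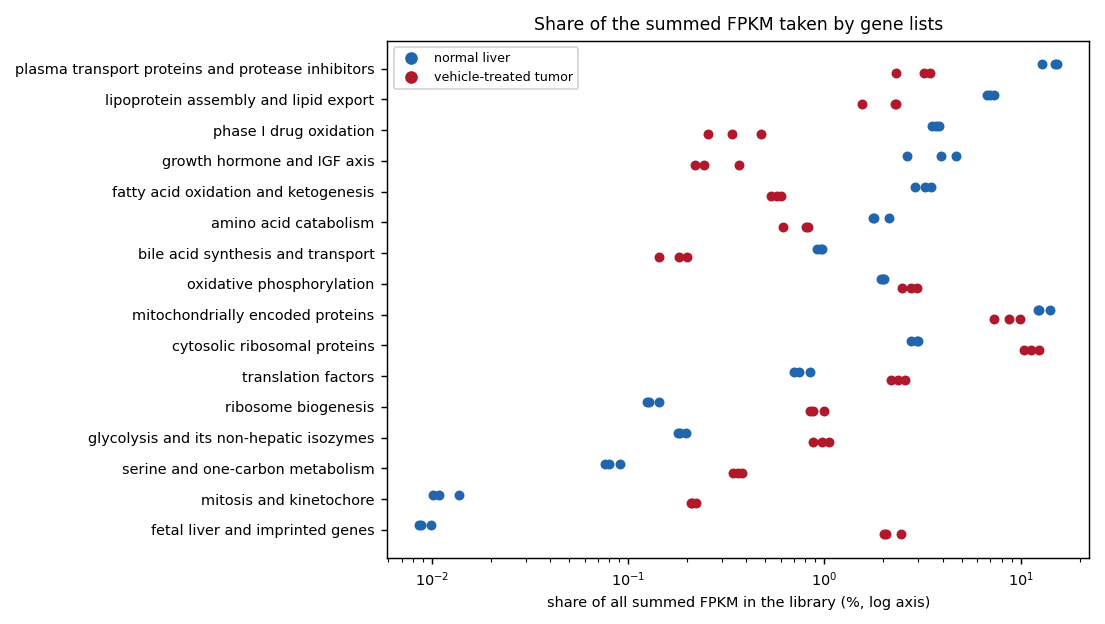
Share of all summed FPKM (x axis, %, log scale) taken by selected gene lists in each of the 3 normal livers and 3 vehicle-treated tumors, which does not depend on scaling between libraries. Plasma transport proteins took 12.9% or more in normal liver and 3.47% or less in tumors, and cytosolic ribosomal proteins took 3.00% or less in normal liver and 10.4% or more in tumors.

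Fetal liver genes and imprinted genes held the largest gains of single list members. Of 25 tested members, 14 were called higher and 2 lower (median 2.19), against 15.9% of all genes called higher. Their share of the summed FPKM was 0.00860% to 0.00983% in normal liver and 2.01% to 2.46% in tumors. *H19*, an imprinted noncoding RNA of the fetal liver, measured 1.39, 1.14 and 0.039 FPKM in the normal livers and 5360, 4840 and 3880 in tumors (log2 fold change 11.38), and *Afp*, alpha-fetoprotein, at 2.53, 2.23 and 2.05 and 1950, 1350 and 1520 (log2 fold change 8.93). *Igf2*, the fetal growth factor that neighbors *H19*, was near 0 in normal liver (0.0162, 0 and 0 FPKM) and at 57, 50.5 and 52.2 in tumors. The groups were far apart for each of these genes, with no tumor near a normal liver. *Bex1* (7.69), *Bex2* (7.7) and *Bex4* (6.91), small X-linked adaptor genes, and the paternally expressed *Peg10* (6.71) and *Peg3* (4.19) rose as well, as did the oncofetal RNA-binding protein gene *Igf2bp3* (2.19) and *Gpc3*, glypican 3 (2.73). *Dlk1*, *Meg3*, *Rian* and *Mest*, other imprinted genes, were not called, and *Slc22a18* (-1.48) and *Mycn* (-1.2) fell.

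Cell division genes were higher almost throughout. In the mitosis and kinetochore list 61 of 67 genes were called higher and 2 lower (median 2.59), and in the DNA replication list 44 of 55 and 1 (median 1.57). *Cdc20*, which activates the anaphase-promoting complex, measured 0.496, 2.18 and 0.154 FPKM in the normal livers and 56.8, 62.5 and 57.1 in tumors (5.08, SE 0.45, treat adjusted p = 5.10e-06). *Mki67*, the proliferation antigen, measured 0.166, 1.01 and 0.267 and 14.3, 12.5 and 11.9 FPKM (3.27), and *Cdk1*, the mitotic kinase, at 0.902, 1.56 and 0.699 and 19.4, 17.8 and 14.6 (3.17). Normal liver replicate 2 held the most of these RNAs in its group and still lay far under every tumor. *Rrm2*, the ribonucleotide reductase subunit made in S phase, went from 1, 2.85 and 1.45 to 59.9, 57.2 and 55 FPKM (4.45), *Mcm2* of the replicative helicase from 0.947, 1.15 and 0.4 to 12.7, 13.1 and 12.8 (2.94) and *Pcna*, the sliding clamp, from 21.2, 21 and 22.5 to 65, 58.4 and 50.8 (1.38). A few members went against the rest. *Mcm10*, which loads replication factors, fell from 39.4, 28.4 and 30 to 4.2, 4.55 and 4.09 FPKM (-2.66), *Pttg1*, securin, from 22, 23.1 and 24.4 to 6.63, 6.12 and 5.26 (-1.79), and *Mis12* of the kinetochore fell as well (-1.15).

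Upstream, 14 of 29 genes for G1 cyclins, CDK inhibitors and E2F factors were called higher and 0 lower (median 0.90). *Cdk4*, the G1 kinase, went from 12.9, 15.4 and 12.8 to 72.8, 75.3 and 68.7 FPKM (2.32), *Ccne1*, cyclin E1, from 1.88, 3.37 and 1.37 to 25.5, 31 and 27.9 (3.23) and *Ccnd2* from 1.61, 1.45 and 1.74 to 7.02, 9.23 and 11.2 (1.95). *Ccnd1*, the cyclin D of adult hepatocytes, was not called, at 5.47, 7.65 and 3.17 and 1.69, 0.927 and 3.42 FPKM. The largest rise of the list was that of an inhibitor. *Cdkn1a*, which encodes p21, measured 0.444, 0.766 and 0.755 FPKM in the normal livers and 76.3, 97.3 and 90.9 in tumors (5.75, SE 0.12, treat adjusted p = 1.48e-10).

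Genes of ribosome biogenesis were higher in most cases. Of 67 ribosome biogenesis genes, 54 were called higher and 0 lower (median 1.62), and with libraries of equal sum 66 were higher. *Ncl*, nucleolin, measured 28, 38.4 and 34.7 FPKM in the normal livers and 168, 245 and 168 in tumors (2.48), *Npm1*, nucleophosmin, at 100, 112 and 128 and 566, 773 and 506 (2.41) and *Nop56* of the RNA-methylating particles at 7.71, 9.87 and 8.63 and 77.5, 92.8 and 64.5 (3.02). *Polr1b*, a core subunit of RNA polymerase I, rose by 2.01. *Ncl*, *Npm1* and *Nop56* were highest in vehicle tumor replicate 2. Cytosolic ribosomal proteins moved less per gene, with 12 of 78 called higher, 0 lower and a median of 0.77. That is 15.4% called higher, near the 15.9% of all tested genes. They took 2.75% to 3.00% of the summed FPKM in the normal livers and 10.4% to 12.5% in tumors. Their own sums were 21420.5 to 23137.9 FPKM in normal liver and 32908.2 to 43232.1 in tumors, whose library totals were lower. *Rplp0* of the ribosomal stalk went from 524, 598 and 449 to 1540, 1860 and 1400 FPKM (1.61). Several ribosomal protein genes have processed copies, and how the counting split their reads is not known here.

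Of translation factors 20 of 51 were called higher and 1 lower (median 0.82), and of aminoacyl-tRNA synthetases 14 of 22 and 0 (median 1.29). *Pabpc1*, the poly(A)-binding protein, went from 48.3, 64.5 and 43.9 to 175, 230 and 202 FPKM (1.94). *Eif4ebp1*, the eIF4E inhibitor that mTORC1 phosphorylates, went from 27.2, 46 and 20.8 to 81.1, 90.4 and 87 (1.5). *Vars*, the valyl-tRNA synthetase, showed the largest rise among synthetases, from 6.45, 10.3 and 5.3 to 66.4, 65.3 and 65 FPKM (3.04). The factor called lower was the helicase *Eif4a2* (-1.32), a close relative of *Eif4a1*, which was not called.

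The MYC-binding E-box, CACGTG (its own reverse complement), was looked up in RefSeq promoter windows (250 bases before to 50 after the transcript start, build GRCm38.p6), which matched 10217 of the tested genes. It was present in 14.8% of the genes called higher that had a window (254 of 1719), 9.94% of those called lower and 11.8% of all tested genes, and in 7.15% of all windows. Among lists it occurred in 10 of 60 ribosome biogenesis genes (16.7%), 10 of 39 translation factors (25.6%) and 5 of 55 mitosis genes (9.09%). Plasma transport proteins, complement and coagulation genes held 0, but 3 of 9 urea cycle genes (33.3%), 7 of 29 for cholesterol and fatty acid synthesis (24.1%) and 5 of 23 hepatocyte transcription factors (21.7%) had it, and of the serine and one-carbon list 1 of 18 (5.56%). *Cdk4* is shown as the G1 gene with the most copies, 4 in 180 bases, together with *Nop2*, a ribosomal RNA methyltransferase gene. Capitals mark the E-boxes.
Cdk4, chr10:127063355-127063534, + strand: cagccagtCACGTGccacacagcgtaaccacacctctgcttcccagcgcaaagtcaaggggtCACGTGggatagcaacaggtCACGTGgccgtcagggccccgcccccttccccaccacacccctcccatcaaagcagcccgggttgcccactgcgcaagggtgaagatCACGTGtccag
Nop2, chr6:125131763-125131882, + strand: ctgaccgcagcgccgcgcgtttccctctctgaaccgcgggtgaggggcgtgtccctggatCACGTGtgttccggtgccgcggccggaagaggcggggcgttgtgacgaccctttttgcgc
*Nop2* measured 8.23, 11.8 and 7.02 FPKM in the normal livers and 55.4, 61.4 and 55.9 in tumors (2.57). Other factors also recognize these letters, among them the clock, lysosomal and lipogenic regulators, and 12 of the 30 lysosome genes with a window held them (40%).

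**Figure D4:**
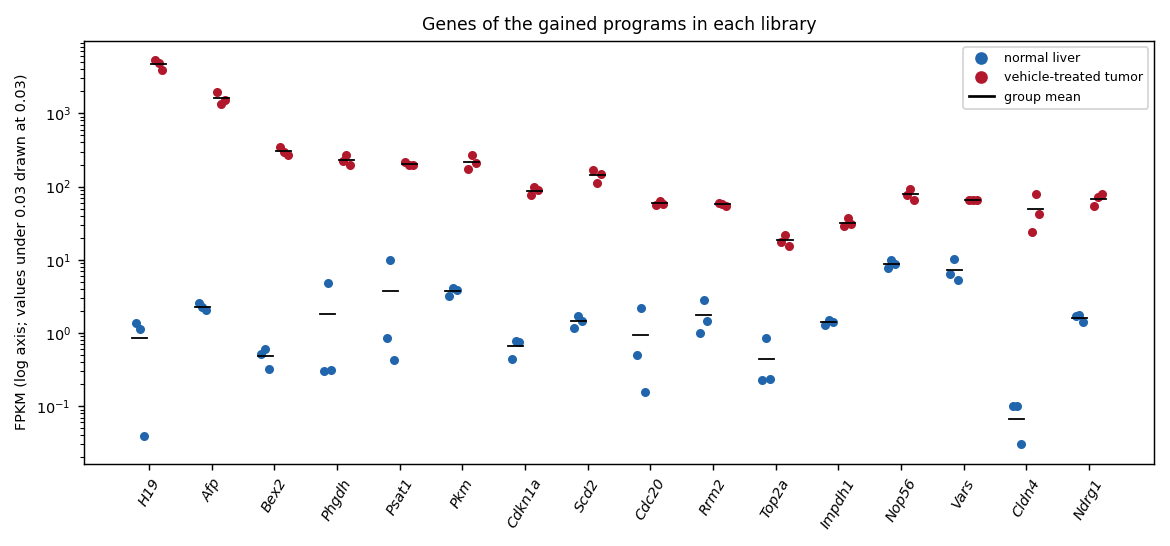
FPKM (y axis, log scale) of genes from the gained programs in each of the 3 normal livers and 3 vehicle-treated tumors, with group means as bars. For every gene the 3 tumors lie above the 3 normal livers, with the widest gap for *H19*, and values of 0 are drawn at the lower edge.

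Serine and one-carbon metabolism supplies carbon for nucleotides and had the highest median of the lists on the deposited scale. The mitosis and kinetochore list was close (2.59), and with libraries of equal sum it stood higher (3.94 against 3.83). The serine and one-carbon list had 15 of 23 genes called higher and 2 lower (median 2.61). *Phgdh*, which commits glycolytic carbon to serine, measured 0.298, 4.78 and 0.308 FPKM in the normal livers and 226, 269 and 197 in tumors (6.75, SE 0.46, treat adjusted p = 5.25e-07), and *Psat1*, the next enzyme, at 0.85, 9.78 and 0.428 and 218, 198 and 195 (6.06). Normal liver replicate 2 held more of both than its group mates. *Mthfd2*, the mitochondrial folate enzyme of dividing cells, went from 1.6, 5.41 and 0.467 to 51.8, 60.2 and 48.4 FPKM (4.22), *Aldh18a1* of proline synthesis from 0.342, 1.07 and 0.165 to 32.5, 47.2 and 36.1 (4.73) and *Slc7a11*, the cystine carrier, from 0.0266, 0 and 0 to 6.94, 11.4 and 13.3 (3.47). The list members that fell were *Aldh1l1* (-3.58), a folate enzyme of quiescent hepatocytes, and *Shmt1* (-1.14), which with libraries of equal sum was at 0.03 and whose call was lost without vehicle tumor replicate 3.

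Nucleotide synthesis and the pentose phosphate pathway were higher in 20 of 35 genes and lower in 1 (median 1.08). *Cad*, which starts pyrimidine synthesis, measured 2.03, 2.45 and 1.49 FPKM in the normal livers and 21.3, 25.2 and 24.2 in tumors (3.05), *Impdh1*, which makes guanine nucleotides, at 1.27, 1.51 and 1.4 and 28.7, 37.1 and 30.8 (3.79) and *G6pdx*, which opens the pentose phosphate pathway, at 1.9, 1.56 and 1.93 and 21.1, 22 and 25.2 (3.09). The purine enzyme *Paics* went against the list, from 142, 145 and 180 to 63.2, 64.4 and 64 FPKM (-1.26), whereas its neighbor in the pathway, *Gart*, rose by 2.18.

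Glycolysis RNAs changed by isozyme. Of 23 genes, 11 were called higher and 3 lower (median 1.0). *Pkm*, the pyruvate kinase of non-hepatic and growing tissue, measured 3.15, 4.15 and 3.91 FPKM in the normal livers and 175, 271 and 209 in tumors (5.52, SE 0.21, treat adjusted p = 6.84e-09), while the liver gene *Pklr* measured 93.9, 133 and 76.8 and 44.5, 31 and 42.7 (-1.32), a call lost without normal liver replicate 2 or vehicle tumor replicate 2. *Hk2*, the hexokinase of muscle and growing tissue, went from 0.155, 0.319 and 0.112 to 8.03, 11.8 and 10.8 FPKM (3.22) and *Aldoa*, the muscle aldolase, rose by 2.78. A like exchange was seen for the glucose carriers *Slc2a2* (-2.88) and *Slc2a1* (1.8). Methionine adenosyltransferase (*Mat1a* -2.17, *Mat2a* 1.66) and stearoyl-CoA desaturase (*Scd1* -4.83, *Scd2* 5.86) followed. *Scd2*, a desaturase of brain and other tissues, went from 1.17, 1.71 and 1.44 to 166, 111 and 150 FPKM, and *Scd1* from 529, 755 and 725 to 44.9, 5.13 and 43.9. These 4 pairs were set out with their values known. The regulators *Pfkfb3* and *Pfkfb2* and the brain aldolase *Aldoc* fell, *Pfkfb3* by 2.55.

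**Figure D5:**
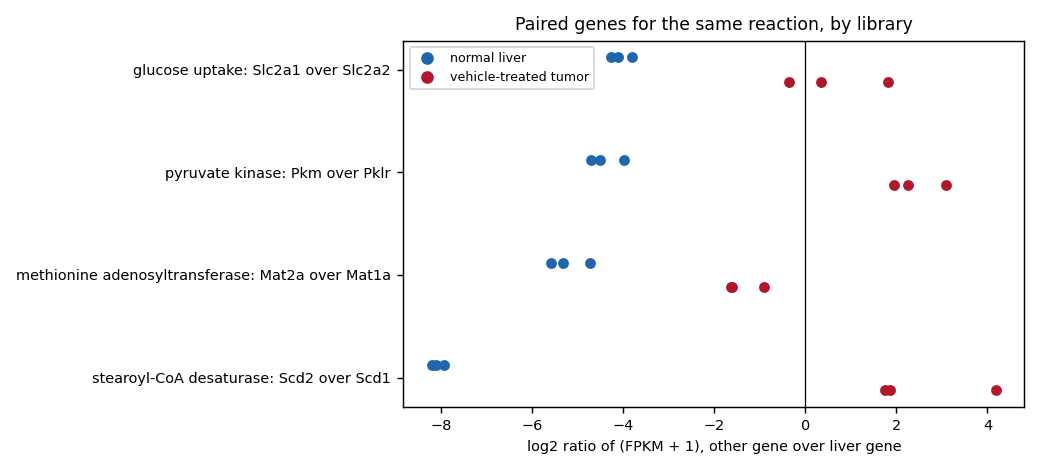
Log2 ratio of the other gene to the liver gene (x axis, FPKM + 1 of each) for 4 reactions, 1 point per library. In normal liver all ratios were negative, from -8.22 to -3.82, and in tumors they ran from -1.64 to 4.19.

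Chaperone and splicing genes were moderately affected. Of all tested genes 15.9% were called higher and 16.9% lower. On the deposited scale ER chaperone genes (16.7% each way) were near those shares and proteasome genes (7.69% each way) under them. Cytosolic and mitochondrial chaperones were higher in 14 of 30 genes and lower in 2 (median 0.90), and splicing factors in 26 of 53 and 1 (median 0.91). *Hsp90ab1* went from 215, 303 and 182 to 768, 785 and 826 FPKM (1.79) and *Hnrnpa1* from 27.2, 27.3 and 30.9 to 127, 145 and 116 (2.14). The ER chaperone list, with 5 higher and 5 lower of 30, and the proteasome list, with 3 and 3 of 39, had medians of -0.27 and -0.20 that turned to 0.92 and 0.97 with libraries of equal sum, where 12 and 22 were higher and 1 and 0 lower. In the ER list the genes that rose were stress-response regulators. *Atf3* went from 0.431, 0.674 and 0.845 to 14.2, 35 and 16.2 FPKM (3.69) and *Trib3* from 3.4, 10.1 and 2.3 to 35, 49.5 and 35.2 (2.89), while *Xbp1*, the secretory factor, fell from 147, 139 and 103 to 36.1, 46 and 32.5 (-1.74).

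Biliary and progenitor genes were higher in 14 of 25 members and lower in 1 (median 1.35). *Krt19*, a keratin of bile ducts, went from 0.65, 0.342 and 0.207 to 29.6, 9.49 and 44 FPKM (4.13), *Cldn4*, a tight junction protein, from 0.102, 0.0999 and 0 to 24.1, 79.5 and 42.6 (5.38) and *Epcam* from 0.682, 1.2 and 0.893 to 3.96, 5.23 and 4.17 (1.5). The tumors differed from one another in these genes, *Krt19* being lowest and *Cldn4* highest in replicate 2. *Sox9*, the duct and progenitor factor, measured 0.359, 0.351 and 0.301 FPKM in the normal livers and 1.9, 1.74 and 3.85 in tumors (1.34). The call of *Sox9* was lost without vehicle tumor replicate 3, and that of *Epcam* without normal liver replicate 1, normal liver replicate 3 or vehicle tumor replicate 2. *Prom1* was not called.

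Of the MYC network 4 genes were called higher and 2 lower of 14. Mouse *Myc* measured 12.2, 4.01 and 6.42 FPKM in the normal livers and 0.807, 1.62 and 1.33 in tumors (-1.83), although the tumors were induced with a c-MYC plasmid. The species of the c-MYC and MCL1 inserts is not given in the labels, and whether plasmid transcripts count toward the mouse genes was not tested. *Mcl1* went from 50.2, 53.9 and 53.2 to 211, 143 and 176 FPKM (1.72), and the partner *Max* from 8.61, 10.2 and 6.79 to 18.4, 19.1 and 21.3 (1.12). Other BCL2 relatives called higher were the death effectors *Bax* (2.0) and *Bak1* (1.84) and the BH3-only genes *Pmaip1* (3.12), *Bbc3* (1.91), *Hrk* (2.59) and *Bid* (1.09). In all 7 of 16 members were higher and 2 lower.

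The hypoxia list had 4 higher and 3 lower of 18 (22.2% and 16.7%), near the 15.9% and 16.9% of all tested genes. With libraries of equal sum 13 were higher and 1 lower. *Ndrg1* went from 1.72, 1.75 and 1.41 to 54.9, 72.3 and 78.1 FPKM (4.71) and *Ddit4*, an inhibitor of mTORC1, from 4.44, 9.35 and 19.9 to 252, 197 and 220 (4.4), while *Epas1*, which encodes HIF-2 alpha, fell from 40.7, 44.9 and 40.5 to 3.3, 2.46 and 5.7 (-3.21). Of lysosomal genes 10 were higher and 3 lower of 41 (24.4% and 7.32%), and with libraries of equal sum 27 and 1. *Cd63* rose from 3.02, 5.27 and 2.73 to 95.2, 88.6 and 89.4 FPKM (4.34), *Gpnmb* from 0, 0.0278 and 0.0294 to 4.45, 7.05 and 8.21 (2.86) and the protease *Ctsl* from 105, 130 and 122 to 346, 358 and 377 (1.6), and *Lamp2* fell by 1.86.

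Antigen presentation genes were lower in 11 of 19 members and higher in 0 (median -1.22). *B2m*, the shared light chain of class I, went from 2920, 2560 and 2990 to 601, 372 and 666 FPKM (-2.41, SE 0.28, treat adjusted p = 1.41e-04), and *H2-K1*, a class I heavy chain, from 782, 693 and 763 to 161, 119 and 167 (-2.33). Without vehicle tumor replicate 2, which was the lowest tumor for all 11, 5 were called lower, and with libraries of equal sum 1 was lower and 2 higher. Interferon response genes had 2 higher and 2 lower of 27 (7.41% each way), under the 15.9% and 16.9% of all tested genes. Their median was -0.15 (0.79 with libraries of equal sum, where 10 were higher and 0 lower).

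Markers of the other liver cell types were read beside these results, as FPKM sums, which carry the scaling between libraries, and as shares of the summed FPKM, which do not. Kupffer cell and macrophage genes summed to 433 to 549 FPKM in the normal livers and 183 to 258 in tumors, with 8 lower and 1 higher of 20. Their shares overlapped, at 0.0556% to 0.0719% and 0.0527% to 0.0811%, and with libraries of equal sum 4 were lower and 3 higher. The resident markers *Clec4f* (77.1, 82.2 and 83.6 to 7.88, 2.07 and 11.6 FPKM, -3.55) and *Vsig4* (-3.29) fell, and *Cd68*, a lysosomal protein of macrophages, rose from 5.75, 4.98 and 4.8 to 24.6, 28.2 and 36.8 (2.31). Endothelial genes summed to 197 to 238 FPKM against 49.4 to 63.6, and 17 of 27 were lower with 0 higher. Their shares were 0.0253% to 0.0311% in normal liver and lower in every tumor, down to 0.0142%, with 8 lower and 1 higher at equal sums. The sinusoidal lectin *Clec4g* went from 26.5, 28 and 29.9 to 0.626, 0.405 and 0.523 FPKM (-4.26), and *Pecam1*, common to all endothelium, was not called (3.41, 4.43 and 3.19 and 2.56, 2.56 and 3.12).

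Stellate cell and fibroblast genes were divided, with 5 higher and 7 lower of 21 (sums of 260.4 to 310.1 and 116 to 184 FPKM). Their shares overlapped, at 0.0334% to 0.0406% in normal liver and 0.0336% to 0.0580% in tumors, and with libraries of equal sum 10 were higher and 5 lower. The quiescent markers *Lrat* (9.51, 6.47 and 13.4 to 0.183, 0.151 and 0.273 FPKM, -3.12), which stores vitamin A, and *Ecm1* (-3.57) fell, while *Col1a1*, the fibrillar collagen of scar tissue, rose from 0.48, 1.35 and 0.686 to 12.8, 8.82 and 20.2 (2.98) and *Acta2*, smooth muscle actin, from 1.15, 0.917 and 1.08 to 10.6, 4.42 and 14.3 (2.27). Cholangiocyte genes summed to 12.1 to 14.2 FPKM in the normal livers and 49.7 to 83 in tumors (5 higher of 9, 0 lower). Erythroid genes summed to 294 to 658 and 36 to 89 FPKM (5 lower of 6, or 2 at equal sums), and *Alas2*, the heme enzyme of red cell precursors, went from 75.4, 65.1 and 69.8 to 0.855, 1.52 and 1.2 FPKM. Neutrophil genes summed to 4.56 to 19 FPKM in the normal livers and 4.88 to 5.43 in tumors, and T and NK cell genes to 4.02 to 6.55 and 4.72 to 6.45, with 5 and 5 members above the filter on low values. As shares, neutrophil genes overlapped, and T and NK cell genes took 0.000516% to 0.000842% in normal liver and 0.00136% to 0.00186% in tumors, every tumor above every normal liver. Of B and plasma cell genes 2 of 3 were lower (0 at equal sums), 1 of them *Xbp1*, which hepatocytes express too. The part that other cell types had in the results above was not tested.

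Outside the lists, the largest rises included secreted and epithelial genes that normal liver barely expressed. *Lgals2*, a galectin, went from 0.94, 0.306 and 0.486 to 244, 221 and 177 FPKM (7.1), *Gpx3*, the plasma glutathione peroxidase, from 3.07, 3.1 and 3.49 to 524, 424 and 559 (6.89) and *Spink1*, a trypsin inhibitor, from 0.22, 0.215 and 0 to 139, 102 and 119 (6.72). *Tff3*, the intestinal trefoil factor, reached 494, 208 and 390 FPKM from 2.63, 4.6 and 2.33 (6.4). *Fabp6*, the ileal bile acid-binding protein, was listed at 0 in all 3 normal livers and at 156, 30.7 and 113 FPKM in tumors, and the cornified envelope gene *Sprr1a* likewise at 0 and at 47.7, 46.4 and 77.5. These genes are known from gut or other epithelia. *Isyna1* of inositol synthesis (2.4, 4.24 and 2.91 to 245, 225 and 260 FPKM, 5.89) and *Ggt1*, the glutathione-cleaving enzyme (0.109, 0.0266 and 0 to 60, 56.9 and 50.5, 5.76), rose in every tumor to similar levels.

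The largest falls outside the lists were those of major urinary protein genes and hepatocyte enzymes. Other major urinary protein genes stood in the growth hormone list. *Mup21* went from 1080, 684 and 1910 to 1.31, 0.14 and 0.951 FPKM (-9.35), and of all 18 tested *Mup* genes, a class set out after its values were seen and whose close copies share reads, 17 were called lower and 0 higher, with a share of the summed FPKM of 1.74% to 4.29% in normal liver and 0.00159% to 0.0159% in tumors. *Car3*, carbonic anhydrase 3, measured 1400, 1240 and 2110 FPKM in the normal livers and 22.6, 0.712 and 24 in tumors (-7.26), with replicate 2 well under the other two tumors. *Nudt7*, a peroxisomal coenzyme A hydrolase, went from 389, 300 and 286 to 3.53, 2.48 and 2.58 FPKM (-6.4), and *Car5a*, the mitochondrial carbonic anhydrase that feeds ureagenesis, from 82.3, 90.1 and 82.2 to 0.209, 0.142 and 0.577 (-6.05).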

How the data were processed

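RNA from 3 normal livers and 3 vehicle-treated tumors was analysed with the 12 libraries of the series in 1 model. Per the labels, the authors sequenced bulk tissue RNA and deposited 1 table of FPKM per gene. FastQC 0.11.7 and the mouse build GRCm38 are named in the submitters' processing notes, while the aligner, the counter and their use of strand were not given in the sources used here. The table lists gene symbols, 22 of which had turned into dates and were not used as names. FPKM are not counts, and whole reads could be recovered only to gauge depth (tolerance 0.1 of a read). Values were rounded to 3 significant digits by the authors. Genes that reached 0.5 FPKM in 3 or more of the 12 libraries were kept (14397 of 17007 rows). log2(FPKM + 1) was fitted in 4 groups with limma 3.58.1 (R 4.3.3, 8 residual degrees of freedom), and treat tested against a fold change of 1.5 with an intensity trend and Benjamini-Hochberg adjustment. The pseudocount understates changes of low genes. Where counting could divide reads between near-identical copies (*Mup*, *Serpina*, *Cyp* and *Ugt* families), single-gene values are uncertain. The fit was tested on simulated data with few changed genes and no scaling difference between libraries, so that test cannot speak to the scaling. The members and gene lists were chosen with earlier results of these data known. Genes named were the marked members of each list, the 3 largest called changes, the 3 most abundant, the 3 largest against the direction of most, and the 15 largest rises and falls outside the lists, of which the text names a part. Outside that rule, and chosen after their values were seen, are *Bak1*, *Bid*, *Bex1*, *Bex4*, *Peg3*, *Peg10*, *Meg3*, *Mest*, *Rian*, *Prom1*, *Nop2*, *Slc2a2* and the p53 target genes, besides *Rictor*, *Tsc2*, *Ddx3y* and *Xist*, which check the labels. Figures were drawn with Python 3.11.15 and matplotlib 3.10.9. Each library is labelled as a separate sample without further detail, so p-values measure the spread between these libraries, which may be partly technical. The 3-read floors cover counting error only, whereas each SE comes from the spread between libraries in the fit. Pseudocount, filter, scaling, model, test and leave-one-out alternatives were run. Some genes are not reported here.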

Additional observations from a re-analysis of the deposited data

How the results depend on the processing

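The scaling between libraries had the largest effect. With libraries rescaled to the same sum 7063 genes were called higher and 1056 lower, 1055 of the 2428 genes called lower on the deposited scale kept their call, and 208 called genes changed sign. A moderated test with changes over 1.5-fold gave 3905 higher and 3708 lower, and treat against a fold of 2 gave 1158 and 1443. Leaving out 1 library at a time gave 2033 to 2183 genes higher and 2167 to 2356 lower. Pseudocount 0.1 gave 3216 and 2879, and the filters, quantile normalization, the 6 libraries alone and a fit without intensity trend gave counts within 1.5 times those reported. Deviations of same-numbered libraries correlated at 0.014, 0.016 and -0.089, and those of differently numbered libraries at -0.115 to 0.103. With 3 libraries per group such values cannot settle whether the numbers pair samples. The replicate block gave 2214 higher and 2350 lower and changed no call of a gene named in the text.

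Of the 214 genes named, 23 kept their direction but lost their call with libraries of equal sum. They were *Abcb11*, *Aldoc*, *Apob*, *B2m*, *C3*, *Eif4a2*, *Fas*, *G6pc*, *H2-K1*, *Hp*, *Lamp2*, *Mat1a*, *Mis12*, *Myc*, *Paics*, *Pfkfb2*, *Pklr*, *Ppara*, *Pttg1*, *Slc22a18*, *Tbx3*, *Trf* and *Xbp1*. Log2 fold changes that turned positive were those of *Ass1* (0.46, and 0.52 with quantile normalization), *Hnf4a* (0.13), *Pecam1* (0.68), *Rictor* (0.36), *Shmt1* (0.028) and *Tsc2* (0.0049), of which *Hnf4a*, *Shmt1* and *Tsc2* had been called lower and lost that call. The list medians that turned positive with libraries of equal sum were iron and hepcidin (0.52), circadian clock (0.77), oxidative phosphorylation (0.45), ER chaperones (0.92), proteasome (0.97), interferon response (0.79), neutrophils (0.36) and stellate cells (0.18). With quantile normalization those of oxidative phosphorylation (0.055), ER chaperones (0.21) and proteasome (0.24) turned positive and that of T and NK cells negative (-0.092). With 1 library left out, the neutrophil median ran from -0.62 to 0.092 (positive without normal liver replicate 2) and the T and NK cell median from -0.14 to 0.15 (negative without normal liver replicate 1 or vehicle tumor replicate 1, the latter at -0.098). At 3 reads, a 2 kb transcript has 0.0645 to 0.144 FPKM, and lower values carry little information.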

Other observations

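Known target genes of the tumor suppressor p53 were looked at after the rise of *Cdkn1a* had been seen, so that their counts describe a choice made on these values. Of 30 such genes, 19 were called higher and 1 lower (median log2 fold change 1.95), where 15.9% of all tested genes were called higher. *Phlda3*, a repressor of AKT signaling, went from 0.654, 0.756 and 0.922 FPKM in normal liver to 37.1, 60.5 and 44.1 in tumors (4.74), *Eda2r*, a receptor of the TNF family, from 0.142, 0.108 and 0.0813 to 10.2, 16.4 and 11.9 (3.61) and *Zmat3*, an RNA-binding protein, from 0.843, 0.65 and 0.654 to 11.7, 19 and 14.9 (3.22). The groups did not overlap for any of these, as was so for all 2282 genes called higher. The death receptor gene *Fas* went the other way, from 15.1, 16.6 and 14.7 to 5.03, 5.32 and 6.1 FPKM (-1.35), a call lost without normal liver replicate 2 or vehicle tumor replicate 1. Some members, such as *Psrc1* and *Gtse1*, are also expressed in dividing cells, and division genes rose in the same tumors. The part of cell division in these values was not tested.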
